A study of Mus musculus with 60 samples.

Results

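Ascorbic acid and a GSK3 inhibitor, given together and called VC, were compared with no VC in wild-type (WT) mouse fibroblasts (FBs) that had not been induced to reprogram. The comparison rested on 6 of the 60 samples of the series, namely 3 libraries of WT 4F cells at day 0 and 3 of WT 4F cells at day 0 plus VC, chosen by their labels alone. Both groups were tail tip FBs of the genotype 4FJ_(+/-)_OCT4-GFP from female mice aged 22 weeks, grown in 3% O2 and used by passage 3. Both carried a cassette of the 4 reprogramming factors (4F, or OSKM: Pou5f1, Sox2, Klf4 and Myc) behind a tetracycline-responsive promoter in the Col1a1 locus, and the M2-rtTA activator in ROSA26, and neither received doxycycline. VC was ascorbic acid at 50 µg/ml plus CHIR-99201, as the treatment protocol spells it, at 3 µM. For how long VC had been present at day 0 was not given in the sources used here. The labels do not say whether the 3 libraries of a group were separate cultures, so p-values measured a spread between libraries of a group that may be technical. That spread was estimated for each gene from all 36 libraries of the fit, in 12 groups, and not from these 6 alone. Poly(A) RNA was sequenced as 150 base paired reads and deposited as read counts per gene. The other day 0 FBs of the series, labelled 4FJ_ERCC1_(d/-) and here called D/KO, carry a truncated Ercc1 allele over a null allele and were from male mice aged 8 weeks. They served as a second comparison, as did WT cells given doxycycline at 2 µg/ml for 2 or 4 days with and without VC.

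Ascorbate keeps the iron of 2-oxoglutarate-dependent dioxygenases reduced. These enzymes hydroxylate the prolines and lysines of collagen, hydroxylate HIF1A for its destruction, and oxidize methyl groups on histones (the JmjC demethylases) and on cytosine (the TET enzymes). The CHIR compound inhibits the kinase GSK3, which otherwise marks beta-catenin for destruction. When GSK3 is blocked, beta-catenin enters the nucleus and, with TCF and LEF factors, switches on Wnt target genes, among them genes such as Axin2 that act back on the pathway.

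The 6 libraries held 16882346 to 18145653 counts, and 15832 genes passed the expression filter. Levels are given as CPM, the count of a gene scaled to a common library size after TMM normalization, in library order 1 to 3, and changes as log2 fold changes of VC over no VC, each with its standard error (SE). Tests were edgeR's two-sided quasi-likelihood test with Benjamini-Hochberg adjustment over the 15832 genes, and a gene was called at an adjusted p under 0.05. No cell or RNA measure other than the counts was at hand, so fewer cells of a type and less RNA per cell cannot be told apart in these bulk libraries. The counting was not stated to use strand, and 168 of the 250 genes named by rule overlap another annotated gene. Values of such genes could include reads of their neighbours.

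The labelled cell type was read in 15 fibroblast identity genes, all of which had enough counts to be tested and of which 8 were called higher and 2 lower with VC. Decorin (Dcn), which was not called, was 1360.5, 1045 and 1053 CPM without VC and 1363, 1328 and 1108 CPM with VC, with an adjusted p of 0.595. Of other cell types, the T cell gene Cd3e, the keratinocyte genes Krt5 and Krt1, the adipocyte gene Adipoq and the myogenic genes Myod1, Myf5, Pax7 and Myog had 0 counts in all 6 libraries. Other markers of these types were detected. The tested keratinocyte markers summed to 5.26 to 7.41 CPM without VC and 4.45 to 7.08 CPM with VC. The tested adipocyte markers summed to 81.0 to 103 CPM without VC and 72.8 to 77.4 CPM with VC. The leukocyte gene Cd79a had 0, 3 and 4 counts without VC and 1, 1 and 0 with VC. The summed level of 11 macrophage and leukocyte markers was 91.3 to 170 CPM without VC and 81.9 to 135 CPM with VC, most of it from the lysozyme gene Lyz2. None of the 9 markers tested was called. The counts do not separate the cassette's factors from the cells' own copies. Pou5f1 was 2.10, 1.29 and 2.50 CPM without VC and 2.21, 2.15 and 1.79 CPM with VC (adjusted p = 0.946). Sox2 was 2.60, 2.69 and 1.58 CPM against 3.79, 3.44 and 3.45 CPM (adjusted p = 0.16), and Myc 34.6, 36.4 and 37.6 CPM against 37.1, 41.0 and 34.1 CPM (adjusted p = 0.797). Klf4 alone of the 4 was called. It fell from 198, 191 and 189 CPM to 94.5, 90.1 and 86.2 CPM, a log2 fold change of -1.10 (SE 0.18, adjusted p = 1.48e-05). The target of the other genotype, Ercc1, was 21.8, 21.9 and 18 CPM without VC and 24.1, 18.4 and 24.7 CPM with it (adjusted p = 0.608). Gsk3b, the kinase CHIR compounds bind, was 139, 131 and 141 CPM against 109, 137 and 138 CPM (adjusted p = 0.616).

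Across all tested genes, 2385 rose with VC (15.1% of genes tested) and 2277 fell (14.4%), 29.4% in all. Each count of list members that rose or fell in this comparison is to be read against these shares. The median absolute log2 fold change of the called genes was 0.70, and 717 rose and 802 fell by at least 2-fold. Genes whose 3 libraries with VC lay wholly above the 3 without made up 22.6% of those tested, and genes wholly below made up 22.7%.

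The smallest adjusted p among rises was that of Spon1, which encodes the matrix protein spondin 1. It was 51.7, 34.0 and 32.1 CPM without VC and 422, 455 and 434 CPM with VC, an 11.1-fold rise (log2 fold change 3.48, SE 0.17, adjusted p = 1.05e-17). Cthrc1, a secreted protein of collagen-depositing fibroblasts, went from 19.2, 20.5 and 17.9 CPM to 298, 254 and 334 CPM, a 15.4-fold rise (adjusted p = 2.48e-17). The lowest VC library of either gene was several times the highest library without VC. Nell2, a secreted glycoprotein, rose 28.1-fold from 1.60, 0.913 and 0.817 CPM to 29.2, 27.3 and 37.4 CPM (adjusted p = 2.58e-14). Gask1b, Sbspon, Cpz and the potassium channel gene Kcnj15 completed the 6 rises of smallest p. Kcnj15 went from 9.06, 9.13 and 10.2 CPM to 94.9, 108 and 123 CPM, and it overlaps Gm49643, which was also among the largest rises. Among rises from almost no counts, the serotonin receptor gene Htr2b was at 0.0552, 0 and 0 CPM without VC and 2.97, 2.76 and 4.58 CPM with VC. The ratio of its summed counts was 192, with a 95% interval of 34.0 to 7637 that covers counting error only. Fcgr2b, an inhibitory Fc receptor, rose from 0.166, 0.591 and 0.409 CPM to 13.5, 13.7 and 9.09 CPM.

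The most significant fall was that of Aldh1a3, which makes retinoic acid from retinal. Its level was 72.0, 63.9 and 59.8 CPM without VC and 1.26, 1.72 and 1.59 CPM with VC, a 42.5-fold difference (log2 fold change -5.41, SE 0.21, adjusted p = 4.27e-20). Stmn2, which binds tubulin, fell from 383, 429 and 392 CPM to 67.6, 53.7 and 49.6 CPM (log2 fold change -2.82, SE 0.12, adjusted p = 2.48e-19). Ccdc3, which encodes a secreted protein, fell from 215, 247 and 251 CPM to 22.8, 22.7 and 22.7 CPM (log2 fold change -3.39, SE 0.14, adjusted p = 2.48e-19). The libraries of a group differed little beside these gaps. The teneurin gene Tenm4 fell 24.4-fold, from 34.5, 27.5 and 23.8 CPM to 0.758, 1.35 and 1.39 CPM, and the actin-binding advillin gene Avil 31.3-fold, from 17.2, 16.9 and 14.2 CPM to 0.505, 0.491 and 0.531 CPM. Cyb5r1 was the last of the 6 falls of smallest p. Ostn, which encodes the secreted peptide osteocrin, was at 5.14, 5.05 and 3.47 CPM without VC and had no count in any VC library, at least 71.2-fold lower against a floor of 3 counts over the group. Car6 and Sh2d6 also had no count in any VC library and were at least 63.9-fold and at least 43.6-fold lower by the same floor.

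**Figure D1:**
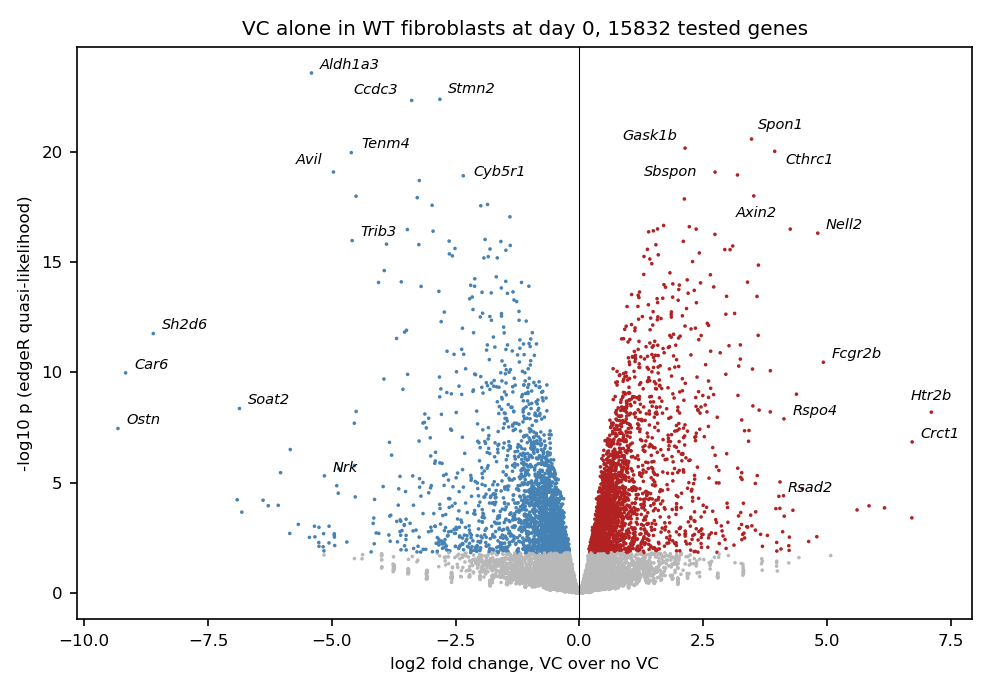
Log2 fold change of VC over no VC in WT FBs at day 0 (x axis) against the -log10 of the unadjusted p-value (y axis) for the 15832 genes tested. Red points are the 2385 genes called higher and blue points the 2277 called lower, grey points were not called, and Aldh1a3 lies highest on the side of the falls.

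Wnt feedback and direct target genes were examined as the transcriptional readout of beta-catenin. Of 19 tested members of this list, 7 rose and 2 fell, against 15.1% and 14.4% of all genes, with a median log2 fold change of 0.51, and other members were not called. Axin2 encodes a scaffold of the complex that destroys beta-catenin. It was 0.884, 1.34 and 1.69 CPM without VC and 25, 24.8 and 25.8 CPM with VC, a 19.1-fold rise (log2 fold change 4.26, SE 0.27, adjusted p = 2.03e-14). Nkd2, which restrains Wnt signalling at the level of Dishevelled, went from 10.0, 8.27 and 10.1 CPM to 97.7, 109 and 91.7 CPM (log2 fold change 3.40, SE 0.26, adjusted p = 1.86e-12). Apcdd1, a membrane-bound Wnt inhibitor, went from 14.9, 15.1 and 15 CPM to 71.0, 62.1 and 63.1 CPM (log2 fold change 2.12, SE 0.12, adjusted p = 1.36e-15). In each of these 3 genes the groups were far apart, and each acts against the pathway.

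The TCF factor gene Tcf7 rose from 2.21, 1.77 and 0.919 CPM to 4.04, 3.62 and 5.24 CPM (adjusted p = 0.00054), while its relative Lef1 fell from 2.43, 3.12 and 5.0 CPM to 1.83, 0.922 and 1.26 CPM (adjusted p = 0.01). Lgr6, a receptor for R-spondins, also fell. Prickle1, Twist1 and Tnfrsf19 rose, by 0.41, 0.32 and 2.03 on the log2 scale, the last from under 0.5 CPM in every library without VC. Not every Wnt target followed. Cyclin D1 (Ccnd1) was 405, 391 and 399 CPM without VC and 320, 405 and 407 CPM with VC (adjusted p = 0.661). The ligand deacylase gene Notum was under 0.5 CPM in all 6 libraries (adjusted p = 0.619). Leaving out each library in turn gave 5 to 7 members higher, and 1 of the 2 falls was called without untreated library 3 or VC library 2. Axin2, Nkd2 and Lef1 overlap antisense or neighbouring transcripts. The 250 bases before the start of Axin2, from its Ensembl canonical transcript in GENCODE M39, are shown because Axin2 is the standard readout of this pathway. They lie on GRCm39 at chr11:108811388-108811637, plus strand.
Axin2: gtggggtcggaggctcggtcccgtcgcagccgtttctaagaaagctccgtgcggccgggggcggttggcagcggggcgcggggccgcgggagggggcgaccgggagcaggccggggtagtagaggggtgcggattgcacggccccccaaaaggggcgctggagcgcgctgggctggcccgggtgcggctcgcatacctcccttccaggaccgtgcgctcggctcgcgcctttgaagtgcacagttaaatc

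They hold no CTTTGAT, the form of the TCF/LEF word searched for here, on either strand, so no letters are in capitals. Other forms, such as the CTTTGAA near the end of this window, were not searched for. The search says nothing about TCF factors at other sites. Across the list, 3 of 19 windows of this length hold CTTTGAT (15.8%), against 2.45% of all 15778 windows of tested genes. Those are the windows of Nkd1, Notum and Sp5, none of which was called.

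Ligands and their helpers changed in both directions. Of 20 tested Wnt ligands, R-spondins and secretion factors, 6 rose and 7 fell, with 5 to 6 falls when any library was left out. Wnt5a, the main non-canonical ligand of fibroblasts, rose from 234, 221 and 245 CPM to 437, 545 and 538 CPM (log2 fold change 1.12, adjusted p = 1.37e-10), and Wnt5b, Wnt9a, Porcn and Wls, the last 2 needed to acylate and release Wnts, rose by 1.41, 0.78, 0.88 and 0.37. Rspo4 rose from 0.276, 0.107 and 0.306 CPM to 4.04, 3.75 and 4.71 CPM (adjusted p = 3.92e-07). R-spondins are secreted agonists that keep Frizzled receptors at the surface, and Rspo1 was 0.718, 0.376 and 1.12 CPM against 0.758, 1.41 and 0.664 CPM (adjusted p = 0.749). Rspo3 fell from 52.1, 43.5 and 45 CPM to 9.98, 10.9 and 6.44 CPM, a 5.14-fold difference (adjusted p = 1.09e-10). Rspo2 fell from 59.9, 50.9 and 55.3 CPM to 17.0, 20.8 and 19.5 CPM. The canonical ligand Wnt2 fell 12.9-fold, from 9.45, 13.4 and 10.2 CPM to 1.07, 0.922 and 0.531 CPM (adjusted p = 2.79e-10). Wnt4, Wnt10b, Wnt2b and Wnt16 fell by 0.95, 2.30, 0.60 and 0.91 on the log2 scale, Wnt10b by 3.03 without VC library 2.

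Among 15 tested Wnt receptors 5 rose and 4 fell. The R-spondin receptor Lgr4 fell from 131, 126 and 129 CPM to 28.9, 37.0 and 35.7 CPM (log2 fold change -1.93, SE 0.14, adjusted p = 1.87e-13), and Fzd4 from 4.75, 4.57 and 5.0 CPM to 0.379, 0.799 and 1.06 CPM. Fzd1 rose from 451, 418 and 419 CPM to 763, 836 and 841 CPM, and Fzd2, Fzd5, Fzd6 and Fzd8 rose by 0.76, 0.77, 0.89 and 0.46, so the Frizzled genes did not move as a family. Fzd7 and the non-canonical receptor gene Ror1 fell by 0.57 and 1.03. In the list of secreted Wnt antagonists, 2 of 11 tested members rose and 4 fell. Cpz, a member that is a carboxypeptidase with a Frizzled-like domain and not an established antagonist, rose 9.15-fold from 24.4, 20.1 and 17.9 CPM to 228, 185 and 158 CPM (adjusted p = 1.77e-16), and Sfrp1 rose by 0.51. Dkk2, which blocks the LRP co-receptors, fell from 724, 754 and 753 CPM to 356, 387 and 338 CPM (adjusted p = 7.74e-08). Dkk3, Frzb and Sfrp2 fell by 0.66, 2.14 and 0.74.

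Of 26 members of GSK3, the destruction complex and the TCF co-factors, which relay the signal, 1 rose and 6 fell, together near the 29.4% of all genes called in either direction. Beta-catenin itself (Ctnnb1) went from 349, 365 and 354 CPM to 386, 429 and 463 CPM (log2 fold change 0.26, adjusted p = 0.018), a call that was lost without library 1 or 3 of the untreated group or library 3 of the VC group. The co-repressor gene Tle2 fell from 80.2, 64.8 and 70.8 CPM to 30.3, 30.7 and 21.9 CPM (log2 fold change -1.38, adjusted p = 1.4e-07), and Tle1, Tle3, Dvl1, Pygo1 and Tcf7l2 fell by 0.26 to 0.64 on the log2 scale.

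**Figure D2:**
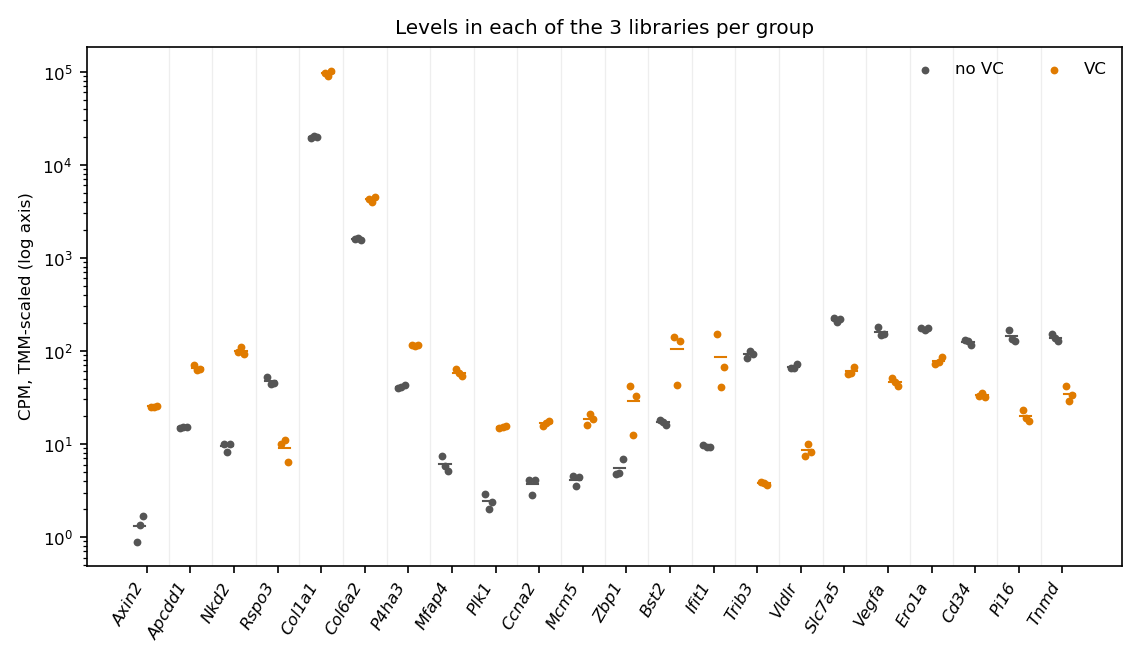
Level of 22 genes in each of the 6 libraries, as CPM on a log axis, with grey points without VC, orange points with VC and a line at each group's mean. Axin2 stands near 1 CPM without VC and near 25 CPM with it, and the VC libraries spread from 12.5 to 41.6 CPM in Zbp1, from 43.4 to 141 CPM in Bst2 and from 40.4 to 153 CPM in Ifit1.

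The other component of VC was followed through the enzymes that use ascorbate and through its carriers. Of 17 tested collagen hydroxylases, glycosyltransferases and chaperones, 10 rose and 2 fell, with a median log2 fold change of 0.39. P4ha3, a catalytic subunit of prolyl 4-hydroxylase, rose from 39.7, 40.4 and 43.1 CPM to 116, 113 and 116 CPM (log2 fold change 1.49, SE 0.13, adjusted p = 2.48e-11), with the 3 libraries of each group close together. Colgalt1, which adds galactose to hydroxylysine, rose from 176, 168 and 175 CPM to 294, 292 and 324 CPM. The collagen chaperone Serpinh1 rose by 0.95, P4hb by 0.75, Crtap and Fkbp10 by 0.71 each, P3h1 by 0.63 and Plod3 by 0.54, and Ppib and P3h4 rose by 0.39 and 0.29. Plod2, the lysyl hydroxylase of telopeptides, fell from 73.2, 76.4 and 74.7 CPM to 45, 55.0 and 54.5 CPM, and P3h2 fell from 5.25, 3.01 and 3.17 CPM to 0.695, 1.04 and 0.73 CPM. Leaving out VC library 1 left 1 of these 2 falls.

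The ascorbate transporter gene Slc23a2 was 66.6, 59.5 and 63.0 CPM without VC and 53.6, 70.7 and 60.6 CPM with VC (adjusted p = 0.87). Among the 8 tested genes of ascorbate and dehydroascorbate handling, 2 rose and none fell. These were Glrx, from 18.7, 19.3 and 18.7 CPM to 39, 36.8 and 35.8 CPM, and Gsto1, from 69.9, 83.1 and 73.3 CPM to 143, 117 and 141 CPM, both enzymes able to reduce dehydroascorbate. Of the 9 TET and cytosine methylation genes, 3 rose and none fell. Tet1, Tet2 and Tet3 were not called (adjusted p = 0.239, 0.366 and 0.218). The called members were Uhrf1, from 5.03, 4.30 and 3.68 CPM to 14.4, 14.6 and 13.5 CPM, the maintenance methyltransferase Dnmt1, from 37.8, 37.4 and 31.7 CPM to 51.1, 59.0 and 57.0 CPM, and the repair glycosylase Mbd4, whose groups overlapped (adjusted p = 0.046). Uhrf1 and Dnmt1 are known to be expressed with DNA replication.

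Of 20 tested JmjC demethylases, 4 rose (Riox1, Riox2, Kdm5b and Phf8, by 0.30 to 0.69) and 3 fell, a share near that of all genes. Kdm3a, which removes methyl groups from lysine 9 of histone H3, fell from 46.8, 45.9 and 53.2 CPM to 28.0, 34.0 and 32.0 CPM, and Kdm6a and Kdm3b each fell by 0.41. Leaving out any library but VC library 1 left 0 or 1 members called higher, and leaving out VC library 1 left 1 called lower. Among 9 HIF regulators, Hif1a rose from 223, 212 and 224 CPM to 260, 319 and 327 CPM, Vhl and Arnt rose by 0.42 and 0.27, and the prolyl hydroxylase gene Egln1 fell by 0.48.

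Genes known to be switched on by HIF fell more often than they rose. Of 24 tested, 12 fell and 3 rose, with a median log2 fold change of -0.46. Vegfa, the vascular growth factor, fell from 179, 149 and 151 CPM to 51.5, 46.3 and 41.9 CPM, a 3.43-fold difference (adjusted p = 4.43e-12). Ero1a, an oxidase of the endoplasmic reticulum, fell from 177, 166 and 174 CPM to 71.3, 76.7 and 85.0 CPM (adjusted p = 5.5e-09). Ndrg1 fell from 138, 146 and 139 CPM to 70.1, 68.0 and 66.8 CPM, and the mitophagy receptor gene Bnip3l from 144, 147 and 145 CPM to 84.4, 83.2 and 92.1 CPM. The groups did not overlap in any of these 4. Leaving out each library in turn gave 12 to 13 members lower. Glycolytic enzyme genes, many of them HIF targets too, did not share this: of 18 tested, only Pkm was called, and it rose by 0.44 (adjusted p = 0.014), with 0 to 3 members higher when libraries were left out. The HIF word, ACGTG or GCGTG on either strand, was in 16 of 24 windows of 250 bases before the start (66.7%), against 49.7% of all windows.

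Collagen messages rose to a larger part of the libraries. The 23 collagen chain genes of the list took 6.89 to 7.11% of all counts without VC and 16.6 to 17.1% with VC. Of 22 chains tested, 13 rose and 3 fell, and every library left out in turn gave 13 rises. Col1a1, the chain with the most counts, went from 19323, 20294 and 19778 CPM to 97341, 89864 and 102498 CPM, a 4.88-fold rise (log2 fold change 2.29, SE 0.16, adjusted p = 2.64e-13). The factor cassette of these cells lies in the Col1a1 locus, and reads of the 2 alleles were not separated here. Col1a2, whose chain pairs with it in type I collagen, went from 12049, 12510.4 and 11924 CPM to 38392, 38389 and 40455 CPM (log2 fold change 1.68, SE 0.14, adjusted p = 6.93e-12). The type VI chains Col6a1 and Col6a2 rose by 1.27 and 1.42 on the log2 scale, Col6a2 from 1604, 1618 and 1543 CPM to 4309, 3942 and 4528 CPM. The VC libraries lay above all untreated libraries in each of these chains. The basement membrane zone chain Col15a1 fell from 84.9, 55.0 and 58.7 CPM to 24.6, 30.5 and 24.6 CPM (log2 fold change -1.31, SE 0.15, adjusted p = 1.03e-08).

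Of 31 tested matrix glycoproteins and proteoglycans, 15 rose and 2 fell, with 13 to 14 rises when any library was left out. Thbs2, an inhibitor of vessel growth, rose from 1263, 1213 and 1294 CPM to 3461, 3958 and 3844 CPM (adjusted p = 2.03e-14). Sparc, a collagen-binding protein, rose from 6291, 6537 and 6441 CPM to 16999, 14398 and 16072 CPM, and lumican (Lum), which spaces collagen fibrils, from 381, 292 and 276 CPM to 978, 952 and 909 CPM. Emilin1 rose by 1.06. Fibronectin went the other way. Fn1, chosen after its values were seen, fell from 11804, 10002 and 11177 CPM to 5734, 6788 and 6483 CPM (log2 fold change -0.80). Matrix proteases and inhibitors changed in both directions, with 9 of 20 higher and 8 lower, or 6 to 7 lower when any library was left out. Adamts2, the procollagen N-proteinase, rose from 336, 333 and 339 CPM to 891, 918 and 805 CPM (adjusted p = 9.38e-14), and the gelatinase Mmp2 from 972, 884 and 905 CPM to 2107, 2032 and 2152 CPM. The aggrecanase Adamts4 rose by 1.37. Timp3, a matrix-bound protease inhibitor, fell from 1445, 1153 and 1307 CPM to 349, 469 and 482 CPM (adjusted p = 6.22e-09).

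Genes known to respond to TGFb did not move together. Of 14 tested, 4 rose and 2 fell, against 15.1% and 14.4% of all genes, so the falls were near that share. Only 1 of the falls was called without untreated library 1, VC library 1 or VC library 3. Tgfbi rose from 54.2, 57.5 and 50.9 CPM to 127, 119 and 124 CPM and Pmepa1 by 0.63, and the list also holds Col1a1. Ccn2 fell from 548, 425 and 414 CPM to 308, 295 and 233 CPM (adjusted p = 0.0014). Of 12 BMP targets, 5 fell and none rose, with a median log2 fold change of -0.38, and 2 to 3 fell when any library was left out. Id4, an inhibitor of helix-loop-helix factors, fell from 49.7, 33.2 and 28.6 CPM to 15.7, 16.3 and 15.3 CPM (adjusted p = 4.08e-06), and Hey1, Smad6 and Smad7 fell by 1.60, 0.41 and 0.40. Among 19 BMP and activin ligands and antagonists, 7 rose and 4 fell. The activin subunit gene Inhbb rose from 342, 331 and 307 CPM to 938, 931 and 991 CPM (adjusted p = 6.65e-14) and the antagonist Chrdl1 from 81.3, 62.6 and 63.4 CPM to 169, 191 and 195 CPM. Bmp6 and the antagonist Nog fell by 1.03 and 1.30. Without VC library 3, 2 of those 4 falls were called.

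Proliferation genes were low without VC and rose with it. All 20 tested mitotic genes rose, with a median log2 fold change of 1.88, also in every fit that left out 1 library, and their summed level went from 78.6 to 85.4 CPM to 254.7 to 298 CPM. The mitotic kinase gene Plk1 was 2.87, 1.99 and 2.40 CPM without VC and 15, 15.2 and 15.4 CPM with VC, a 6.26-fold rise (log2 fold change 2.65, SE 0.20, adjusted p = 9.45e-13). Cyclin A2 (Ccna2) rose from 4.09, 2.85 and 4.09 CPM to 15.5, 16.8 and 17.7 CPM, cyclin B1 (Ccnb1) from 3.70, 2.31 and 3.68 CPM to 15.1, 12.8 and 18.5 CPM, and topoisomerase II alpha (Top2a) from 11.4, 8.92 and 12.9 CPM to 39.1, 49.7 and 46.0 CPM. Among 22 genes of DNA replication and S phase, 16 rose and none fell (median log2 fold change 0.98, and 14 to 16 rises with a library left out). The replicative helicase gene Mcm5 rose from 4.47, 3.49 and 4.44 CPM to 16.1, 21.2 and 18.4 CPM (adjusted p = 1.83e-11), and the ribonucleotide reductase gene Rrm1 from 59.0, 56.6 and 53 CPM to 127, 141 and 149 CPM (adjusted p = 1.69e-13). Mcm3 rose by 1.86.

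Of 18 cyclins, cyclin-dependent kinases and their inhibitors, 7 rose and 2 fell, the falls being 0 or 1 without any library but untreated library 1 or VC library 2. Cyclin E1 (Ccne1) rose from 10.5, 10.9 and 9.70 CPM to 23.4, 19.3 and 25.8 CPM, and Ccnd3 and Cdk4 rose by 0.66 and 0.52. Cdkn1a, which encodes the cell cycle inhibitor p21, also rose, from 379.6, 414 and 389 CPM to 726, 593 and 670.3 CPM (log2 fold change 0.75, adjusted p = 2.49e-07). The list of p53 targets, which holds Cdkn1a, was mixed, with 5 of 16 higher and 2 lower. Bbc3 and Plk2 fell by 0.98 and 1.07, Zmat3 rose by 0.24, and the 5 rises became 1 or 2 without any library but VC library 2. Of 37 DNA repair genes, 10 rose and 1 fell, but the median log2 fold change was 0.05. The 4 of smallest p among them work at replication forks or in recombination. These were the ligase Lig1, from 7.13, 6.87 and 8.22 CPM to 17.4, 17.1 and 15.9 CPM, the exonuclease Exo1, which rose by 2.35, Brca1, which rose by 1.57, and Fanci, which rose by 1.54.

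A window of 250 bases before the start of Top2a in GENCODE M39 is shown for the cell cycle homology region word TTTGAA, in capitals. The window lies at chr11:98915042-98915291 of GRCm39, minus strand. The word is bound by complexes that restrain these genes outside the cycle.
Top2a: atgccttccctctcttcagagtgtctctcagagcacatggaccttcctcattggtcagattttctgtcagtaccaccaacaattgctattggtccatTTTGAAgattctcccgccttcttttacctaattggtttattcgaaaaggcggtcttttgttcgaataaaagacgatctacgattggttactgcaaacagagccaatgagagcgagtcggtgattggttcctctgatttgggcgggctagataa

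The word lies 153 to 148 bases before the start. It was in 6 of 20 windows of the mitotic list (30%), those of Top2a, Ccnb2, Cdk1, Aurkb, Cdc20 and Kif20a, against 12.9% of all windows, both strands searched.

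Interferon-stimulated genes rose as a group but unevenly between the VC libraries. All 20 tested members of a list of 22 were called higher, with a median log2 fold change of 2.35. Their summed level was 280.1, 274.3 and 294.9 CPM without VC and 1434, 550.2 and 975.6 CPM with VC, so VC library 2 held the least and VC library 1 the most. Without VC library 1 the median was 1.90 and without VC library 2 it was 2.62, and 18 to 20 members were called with any library left out. Zbp1, a sensor of left-handed nucleic acid, was 4.69, 4.89 and 6.84 CPM without VC and 41.6, 12.5 and 32.9 CPM with VC (log2 fold change 2.40, SE 0.31, adjusted p = 1.85e-07). Bst2, or tetherin, which holds virus at the cell surface, was 18.1, 17.0 and 16 CPM against 141, 43.4 and 127 CPM (log2 fold change 2.61, SE 0.37, adjusted p = 7.83e-07). Ifit1, which binds foreign RNA, was 9.83, 9.18 and 9.35 CPM against 153, 40.4 and 66.9 CPM (log2 fold change 3.20, SE 0.57, adjusted p = 3.48e-05). Ifit3 rose by 2.77 and Rsad2 by 4.03, the latter from 0.221, 0.161 and 0.0511 CPM to 5.56, 1.23 and 0.531 CPM. Without VC library 1 the log2 fold changes of Ifit1, Ifit3 and Rsad2 were 2.50, 1.84 and 2.57. Every VC library exceeded every untreated library in these 5 genes, while the VC libraries themselves differed by 3-fold or more. Mx1 was not tested, with 2, 3 and 2 counts without VC and 21, 1 and 0 with VC. Ifit1 and Ifit3 have near-identical relatives among which reads could be split.

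The windows of 250 bases before the starts of Zbp1 and Bst2 in GENCODE M39 are shown for the interferon-stimulated response element. On GRCm39 they are chr2:173060725-173060974 for Zbp1 and chr8:71990115-71990364 for Bst2, both on the minus strand. Capitals mark GAAANN directly followed by GAAA, on either strand, where N is any base.
Zbp1: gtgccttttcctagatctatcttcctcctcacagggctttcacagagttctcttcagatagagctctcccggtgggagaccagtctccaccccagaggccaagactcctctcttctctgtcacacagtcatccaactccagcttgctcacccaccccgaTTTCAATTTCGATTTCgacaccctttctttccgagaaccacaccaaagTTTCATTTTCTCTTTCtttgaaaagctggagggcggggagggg
Bst2: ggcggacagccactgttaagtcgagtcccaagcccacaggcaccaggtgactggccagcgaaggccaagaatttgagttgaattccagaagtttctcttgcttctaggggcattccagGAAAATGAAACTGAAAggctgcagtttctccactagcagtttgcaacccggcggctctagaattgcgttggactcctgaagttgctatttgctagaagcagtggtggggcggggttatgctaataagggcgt

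Zbp1 has 4 matches, 2 overlapping at 91 to 76 and 2 at 43 to 28 bases before the start, and Bst2 has 2 that overlap at 132 to 117. Over the list 9 of 20 windows matched (45%), among them Ifit1, Ifit3, Rsad2 and Usp18, against 3.16% of all windows.

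Genes that ATF4 switches on when amino acids are short fell. Of 20 tested, 15 fell and none rose, with a median log2 fold change of -0.99 and 13 to 15 falls with any library left out. Trib3, a pseudokinase, went from 83.1, 99.9 and 91.4 CPM without VC to 3.92, 3.81 and 3.65 CPM with VC, a 24.1-fold difference (log2 fold change -4.59, SE 0.31, adjusted p = 5.1e-14). The lipoprotein receptor gene Vldlr fell from 65.0, 64.6 and 71.7 CPM to 7.46, 9.89 and 8.23 CPM (log2 fold change -2.97, SE 0.18, adjusted p = 2.33e-15). Slc7a5, which imports large neutral amino acids, fell from 224, 206 and 218 CPM to 56.3, 57.1 and 67.8 CPM (log2 fold change -1.84, SE 0.13, adjusted p = 1.69e-13). The cystine carrier Slc7a11 fell from 9.45, 12.9 and 12.9 CPM to 2.84, 3.26 and 5.24 CPM, and the one-carbon enzyme Mthfd2 from 86.9, 92.6 and 88.8 CPM to 33.4, 36.1 and 35.4 CPM. None of these overlapped between the groups. Hspa5, a chaperone of the endoplasmic reticulum chosen after its values were seen, was 959, 1051 and 1034 CPM without VC and 984, 981 and 931 CPM with it (adjusted p = 0.652).

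The GENCODE M39 windows of 250 bases before Vldlr (chr19:27194162-27194411, plus strand) and Slc7a11 (chr3:50398064-50398313, minus strand) on GRCm39 are shown. The ATF4 word TGATGNAA is in capitals, on either strand.
Vldlr: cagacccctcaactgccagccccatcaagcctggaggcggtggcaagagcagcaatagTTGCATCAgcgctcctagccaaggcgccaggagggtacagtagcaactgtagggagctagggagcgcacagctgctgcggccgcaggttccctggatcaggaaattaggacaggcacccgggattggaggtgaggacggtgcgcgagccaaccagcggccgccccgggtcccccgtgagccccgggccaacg
Slc7a11: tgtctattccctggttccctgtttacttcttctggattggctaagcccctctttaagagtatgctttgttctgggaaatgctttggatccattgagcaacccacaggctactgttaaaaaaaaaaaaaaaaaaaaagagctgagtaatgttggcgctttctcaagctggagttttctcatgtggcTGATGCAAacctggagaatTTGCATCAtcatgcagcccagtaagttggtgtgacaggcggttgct

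The word lies 192 to 185 bases before Vldlr, and at 65 to 58 and 46 to 39 bases before Slc7a11. It was in 5 of 20 windows of the list (25%), those of Ddit3, Chac1, Pycr1, Slc7a11 and Vldlr, all 5 among the 15 called, against 2.27% of all windows. Such matches are descriptions of letters and not of binding.

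Of 15 NRF2 antioxidant genes, 6 rose and 1 fell, against 15.1% and 14.4% of all genes. The quinone reductase Nqo1 rose from 8.34, 11.2 and 9.65 CPM to 32.2, 23.9 and 26.4 CPM (adjusted p = 8.4e-08), the ferritin gene Ftl1 from 586, 655 and 581 CPM to 1276, 955 and 1182 CPM, and haem oxygenase Hmox1 by 0.62. The NRF2 target Slc7a11 is the one that fell. Among 20 lysosome and autophagy genes, 12 rose and none fell, with 6 to 11 rises when a library was left out, 6 without VC library 1. The cathepsins Ctsb and Ctsk rose by 0.96 and 0.71. Of 22 cholesterol synthesis genes, 4 rose and 2 fell, near the shares of all genes, 1 of the falls being called without any library but untreated library 3. The early enzyme Hmgcs1 fell by 0.45.

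Secreted signals changed gene by gene. Of 23 tested cytokines and chemokines, 6 rose and 6 fell, against 15.1% and 14.4% of all genes. Il33, an alarmin, rose 12-fold from 3.54, 2.69 and 1.74 CPM to 28.2, 35.0 and 32.3 CPM (adjusted p = 5.99e-12). Ccl8 rose from 15.7, 17.6 and 18.3 CPM to 151, 114 and 129.9 CPM, and Cxcl14 from 170.0, 195 and 172 CPM to 839.9, 741 and 719.8 CPM (adjusted p = 9.38e-14 and 5.12e-14). The T cell attractant Ccl5, outside this list but among the largest rises of all genes, went from 0, 0.107 and 0.102 CPM to 1.26, 0.737 and 1.86 CPM. Il6 was too low to test, with 3, 12 and 5 counts without VC and 0, 0 and 1 with VC. In the IGF axis, 4 of 13 rose and 2 fell, or 1 without VC library 3. Igfbp2 rose 7.86-fold from 238, 216 and 213 CPM to 2102, 1718 and 1424 CPM, and Igf1 from 19.0, 12.4 and 16.6 CPM to 66.9, 71.8 and 81.1 CPM (adjusted p = 5.99e-12 and 4.51e-12). Irs2 rose by 0.75. Igfbp5 fell from 7422, 5975 and 6486 CPM to 3356, 3962 and 3653 CPM.

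Of 13 complement genes, 2 rose and 3 fell, near the 15.1% and 14.4% of all genes. C2 rose from 4.14, 4.51 and 4.14 CPM to 27.2, 21.8 and 31.5 CPM and the C1 inhibitor Serping1 by 0.72, while the complement regulator Cd55 fell by 0.87. Of 15 Notch pathway genes, 4 rose and 5 fell. The Notch target Hey2 fell from 8.12, 8.92 and 6.79 CPM to 1.45, 1.84 and 0.929 CPM, the ligand Jag1 from 23.1, 22.2 and 28.2 CPM to 8.66, 11.7 and 11.3 CPM, and Lfng by 1.21, while the receptor Notch3 rose by 0.60. The calls in Dll4 and Heyl rested on near-zero counts, 1 or 2 members were higher without most libraries, and 3 were lower without untreated library 3 or VC library 2. Of 18 genes of FGF and receptor kinase feedback, 8 rose and 4 fell, the rises being 4 or 5 without most libraries. Etv4 and Spred1 rose by 1.04 and 0.58, and Etv5 and Spry2 fell by 0.59 and 0.68.

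Fibroblast identity genes did not move as a block. Of 15 tested, 8 rose, Col1a1 among them, and 2 fell. The falls were in Cd34, a surface sialomucin, from 132, 127 and 114 CPM to 32.5, 35.5 and 31.6 CPM (log2 fold change -1.90, SE 0.13, adjusted p = 4.68e-14), and Pi16, a mark of adventitial fibroblasts, from 166, 135 and 126 CPM to 23.3, 18.8 and 17.7 CPM (log2 fold change -2.84, SE 0.23, adjusted p = 3.94e-12). Dpp4, which marks the same cells as Pi16 in many tissues, rose from 0.994, 0.483 and 1.02 CPM to 4.80, 2.95 and 3.25 CPM. Of 14 contractile and myofibroblast genes, 2 rose and 2 fell, shares near the 15.1% and 14.4% of all genes. Acta2 was 444, 529 and 482 CPM against 563, 493 and 688 CPM (adjusted p = 0.233), Tpm1 and Cald1 fell by 0.50 and 0.51, and desmin (Des) rose from 1.82, 2.47 and 3.01 CPM to 11.3, 8.05 and 9.49 CPM. Of 12 YAP and TEAD targets, 2 rose, also near the share of all genes, and 4 fell. F3, or tissue factor, fell from 184, 119.8 and 123 CPM to 51.3, 48.9 and 38 CPM and Amotl2 by 0.62, while Ankrd1 rose by 1.38.

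Markers of other cells mostly stayed low. None of 6 tested keratinocyte markers was called. Of 9 keratins, Krt19 fell from 7.84, 11.3 and 8.43 CPM to 1.71, 1.97 and 1.93 CPM, and Krt7 also fell, a call lost without any library but untreated library 3. Of 9 cartilage, tendon and bone genes 3 fell and 1 rose (median log2 fold change 0.32), while their summed level was 271 to 286 CPM without VC and 132 to 144 CPM with VC. Tnmd, a tenocyte gene, fell from 150.2, 136 and 128 CPM to 41.7, 28.8 and 33.6 CPM (adjusted p = 2.33e-15), Comp from 48.6, 45.2 and 42.8 CPM to 15, 12.7 and 9.96 CPM, and Sox9 from 33, 38.6 and 45.8 CPM to 16.4, 24.0 and 18.7 CPM. The endothelial markers summed to 16.2 to 18.3 CPM and 7.30 to 8.97 CPM, mostly Tek, which fell from 16.8, 13.7 and 14.9 CPM to 6.13, 4.36 and 4.71 CPM. Of the 10 tested, Tek was the fall called and Erg the rise, the latter with 0, 1 and 0 counts without VC and 4, 10 and 9 with VC (adjusted p = 0.00138). Of 8 Schwann cell and melanocyte markers 3 fell, and 1 of 5 adipocyte markers, Pparg, fell from 4.69, 4.89 and 4.80 CPM to 1.52, 1.17 and 1.59 CPM. Of 8 pericyte and smooth muscle markers, 2 rose and 3 fell, including Cspg4, by 1.52, and Rgs5, by 1.90, with 1 rise and 2 falls without VC library 3. Both muscle markers with enough counts, Des and Acta1, rose, and the summed level of that list was 14.1 to 17.4 CPM without VC and 40.3 to 49.1 CPM with VC. The part of such cells in any result was not tested. Of 20 early pluripotency and epithelial genes 4 had enough counts to test, and only Alpl, alkaline phosphatase, was called. It rose 6.89-fold from 1.99, 2.15 and 1.33 CPM to 12.1, 13.1 and 12.5 CPM (adjusted p = 3.37e-07), while Nanog had 4, 3 and 2 counts without VC and 3, 0 and 0 with VC.

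**Figure D3:**
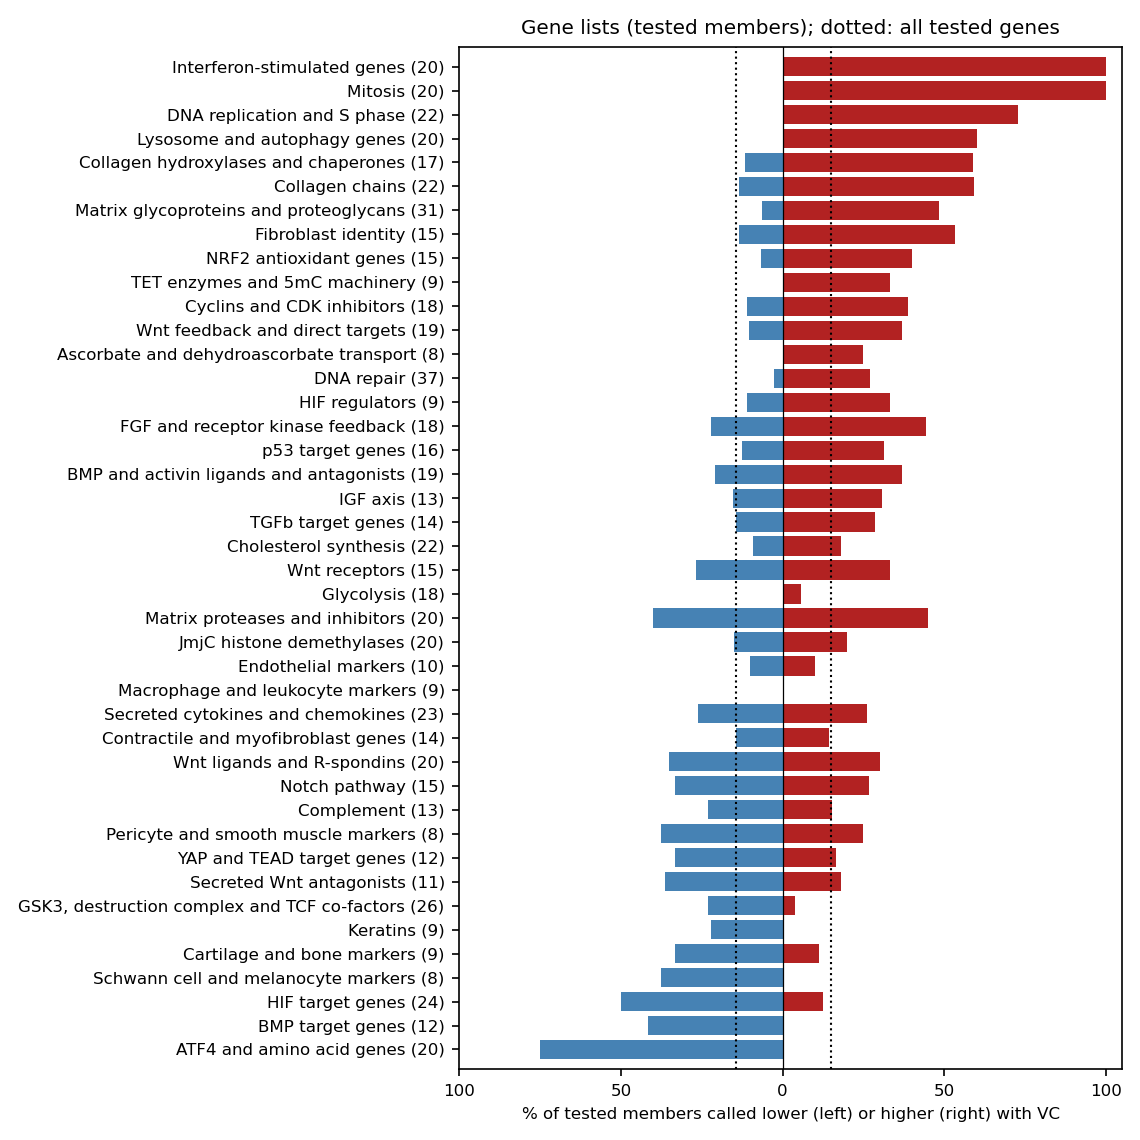
Percent of the tested members of each gene list with at least 8 tested members that were called lower (to the left) or higher (to the right) with VC in WT FBs at day 0, with dotted lines at the 14.4% and 15.1% of all tested genes. The bars of the mitosis and interferon-stimulated lists reach 100% on the higher side, and that of the ATF4 list extends only to the lower side.

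The same addition of VC at day 0 was compared in D/KO FBs, which differ from WT in genotype, sex, age and line, so these 4 cannot be told apart. In D/KO cells VC raised 1919 genes (12.1%) and lowered 2221 (14%). The genes higher in both cell groups numbered 928, 38.9% of the WT rises and 48.4% of the D/KO rises, and those lower in both 886, 38.9% and 39.9%. A further 131 rose in WT and fell in D/KO cells, and 107 did the reverse. The log2 fold changes of the 2 comparisons, which share no library, had a Pearson r of 0.345 and a Spearman rho of 0.290 across the 15832 genes, which are not independent replicates. The difference between the 2 effects, tested as an interaction, was called in 2419 genes (15.3%), of which 1322 (8.35%) were more positive and 1097 (6.93%) more negative in WT. Without D/KO VC library 1 the difference was called in 1547 genes.

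The proliferation genes differed by group. Of the 20 mitotic genes, 3 were called higher in D/KO cells (median log2 fold change 0.21), against 12.1% of all genes. The difference between WT and D/KO was called in 16, against 8.35% of all genes more positive in WT. Plk1 was 11.7 ± 2.70 CPM (mean ± SD, n = 3) without VC and 11.9 ± 2.13 CPM with VC in D/KO cells, a difference of effects of 2.63 (SE 0.27, adjusted p = 1.56e-08). The D/KO level without VC lay above that of WT cells without VC and below that of WT cells with VC. Top2a was 40.6 ± 1.20 CPM and 45.4 ± 6.35 CPM in D/KO cells, with a difference of 1.86 (SE 0.22, adjusted p = 2.07e-07). Mcm5 was 17.1 ± 3.28 CPM and 13.6 ± 1.03 CPM there, with a difference of 2.49 (SE 0.25, adjusted p = 1.41e-08). Of the 22 S phase genes, 3 rose in D/KO cells and 12 had a called difference, all more positive in WT. The interferon-stimulated list also differed. None of its 20 members was called in D/KO cells, with a median log2 fold change of 0.06, and 12 had a called difference. Bst2 was 14.7 ± 3.73 CPM without and 18.2 ± 9.75 CPM with VC in D/KO cells (difference 2.29, SE 0.52, adjusted p = 0.00213), and Ifit1 was 2.18 ± 1.05 CPM and 2.49 ± 1.63 CPM (difference 2.97, SE 0.95, adjusted p = 0.0303).

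ATF4 genes fell in both cell groups, 13 of 20 in D/KO cells with a median of -0.71 and none higher. Trib3 was 134 ± 65.8 CPM without VC and 13.5 ± 1.42 CPM with VC in D/KO cells, and the difference from WT was -1.29 (adjusted p = 0.0236). Vldlr was 90.3 ± 1.15 CPM and 48.6 ± 7.36 CPM, with a difference of -2.08 (SE 0.23, adjusted p = 1.08e-07). Of 19 Wnt feedback genes, 9 were called higher and 3 lower in D/KO cells, against 7 and 2 in WT. Axin2 was lower there without VC, at 0.219 ± 0.0834 CPM, and reached 30.1 ± 5.23 CPM with VC, so that the difference of effects was -2.78 (SE 0.54, adjusted p = 0.000428), a size that rests on near-zero counts in D/KO cells without VC. Dkk2, which fell in WT, was 521 ± 75.4 CPM and 532 ± 115 CPM in D/KO cells (difference -1.08, SE 0.18, adjusted p = 8.49e-05). Among HIF targets 7 fell and 3 rose in D/KO cells, where Vegfa was 116 ± 13.2 CPM and 82.5 ± 17.3 CPM (difference -1.29, SE 0.20, adjusted p = 1.93e-05).

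Col1a1 was 47567 ± 10458 CPM without VC and 135935 ± 30497 CPM with VC in D/KO cells, above WT in both states, and its rise was larger in WT by 0.77 (adjusted p = 0.0155). Col6a2 was 3194 ± 50.8 CPM and 3689 ± 642 CPM, with a difference of 1.22 (SE 0.14, adjusted p = 2.24e-07). The genes of smallest p for the difference were Kcnj2, Col15a1, Entpd1, D17H6S56E-5 and Adam33. The potassium channel gene Kcnj2 was 6.54 ± 1.07 CPM and 71.9 ± 10.1 CPM in D/KO cells and rose by 0.50 in WT (difference -2.96, SE 0.23, adjusted p = 1.35e-10). Col15a1 fell in both, and in D/KO cells from 328 ± 42.6 CPM to 26.6 ± 2.81 CPM (difference 2.31, SE 0.21, adjusted p = 2.77e-09). The ectonucleotidase Entpd1 rose in WT, from 2.93, 3.22 and 3.17 CPM to 15.2, 17.4 and 14.7 CPM, and was 21.9 ± 3.65 CPM and 12.2 ± 4.54 CPM in D/KO cells. The metalloprotease Adam33 fell in WT, from 155, 123 and 133 CPM to 67.3, 70.8 and 54.8 CPM, and was 10.8 ± 3.31 CPM and 51.3 ± 20.8 CPM in D/KO cells. Desmin rose in WT and was 25.4 ± 7.73 CPM and 6.58 ± 2.76 CPM in D/KO cells (difference 3.92, SE 0.38, adjusted p = 9.09e-09).

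**Figure D4:**
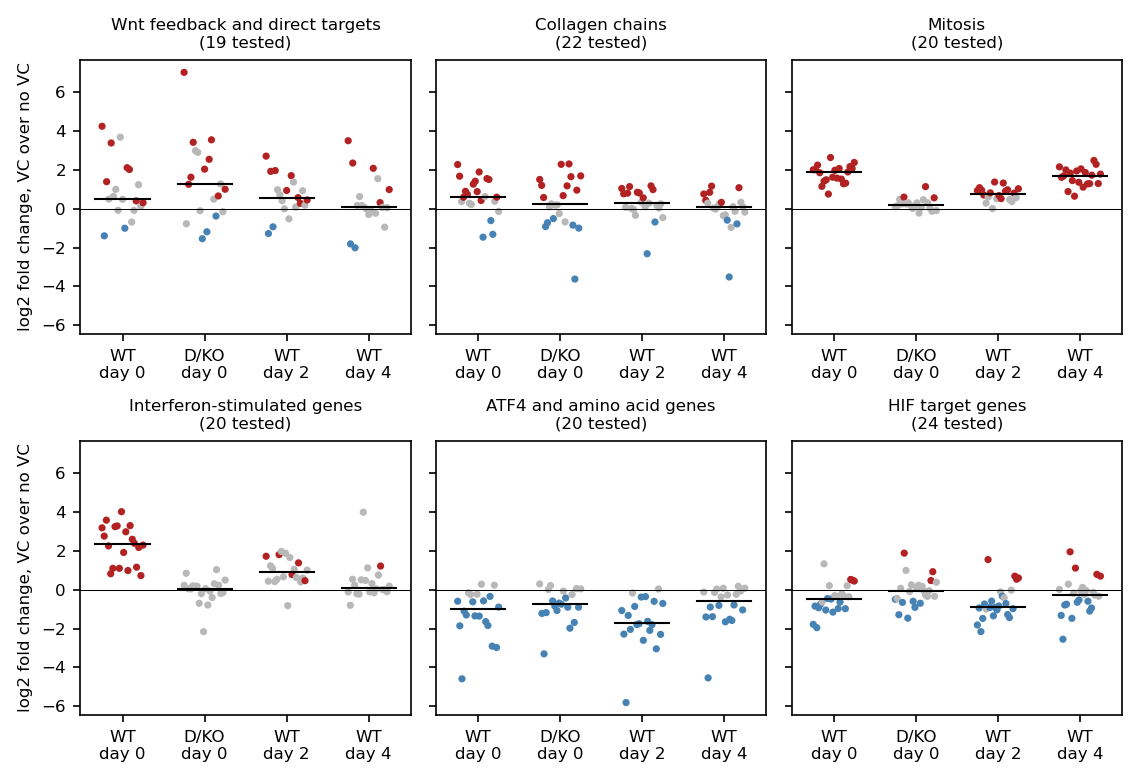
Log2 fold change of VC over no VC for each tested member of 6 gene lists, in WT FBs at day 0, D/KO FBs at day 0 and WT FBs at day 2 and day 4 of doxycycline, with red points called higher, blue called lower, grey not called and a bar at the median. The mitosis and interferon-stimulated medians stand at 1.88 and 2.35 in WT at day 0 and at 0.21 and 0.06 in D/KO.

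VC was also given during induction of the factors, and its effect at day 2 and day 4 of doxycycline was set against that at day 0 in the same WT cells. VC raised 2139 genes (13.5%) and lowered 2066 (13%) at day 2, and raised 1897 (12%) and lowered 1645 (10.4%) at day 4. The effect differed from that at day 0 in 874 genes at day 2 (5.52%) and in 2427 at day 4 (15.3%), where 7.16% were more positive and 8.17% more negative than at day 0. The duration of VC may also differ between these days. The differences use the same day 0 libraries, so the day 2 and day 4 differences are not independent of each other.

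Aldh1a3 and Tenm4, which almost vanished with VC at day 0, did not do so under doxycycline. Aldh1a3 was 82.4 ± 4.23 CPM without and 35.9 ± 3.24 CPM with VC at day 2 and 85.9 ± 6.12 and 73.7 ± 2.55 CPM at day 4, and the VC effect was more positive than at day 0 by 4.21 (SE 0.26, adjusted p = 1.1e-13) and 5.19 (adjusted p = 1.61e-16). Tenm4 was 25.4 ± 3.54 and 25 ± 1.75 CPM at day 2 and 24.0 ± 2.45 and 34.5 ± 8.55 CPM at day 4, with differences of 4.59 and 5.13 (adjusted p = 1.1e-13 and 2.72e-15). Cd34, lower with VC at day 0, was 441 ± 66.7 and 589 ± 5.75 CPM at day 2 and 358 ± 5.79 and 571 ± 15.1 CPM at day 4, a difference of 2.58 at day 4 (adjusted p = 4.27e-13). The LPS-binding protein gene Lbp and the integrin gene Itgb4, which had the smallest p for the day 2 difference after the first pair, were 65.1 ± 12.4 and 26.3 ± 1.66 CPM without VC at day 2 and 417 ± 45.8 and 216 ± 24.9 CPM with VC. At day 0 Lbp fell by 0.48 and Itgb4 was not called (adjusted p = 0.692).

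Of the lists, mitotic genes rose at each time, 13 of 20 at day 2 and 20 of 20 at day 4, with 11 smaller rises at day 2 than at day 0 by the test of the difference. For 22 collagen chains the difference from day 0 was called negative in 5 and positive in 1 at day 2, and negative in 11 and positive in 1 at day 4. Col1a1 was 15337 ± 4414 and 31732 ± 3611 CPM at day 2 and 11691 ± 590.1 and 19837 ± 2643 CPM at day 4, with differences of -1.24 (adjusted p = 0.000344) and -1.52 (SE 0.22, adjusted p = 5.9e-06). Of the 20 interferon-stimulated genes, 5 were called higher at day 2 and 1 at day 4, and the difference from day 0 was called in 2 at day 2 and 13 at day 4, all negative. ATF4 genes fell at both days, 18 of 20 at day 2 and 10 at day 4. Axin2 rose at both, to 11.4 ± 1.51 CPM at day 2 from 1.73 ± 0.419 CPM and to 18 ± 1.59 CPM at day 4 from 1.58 ± 0.212 CPM, with differences of -1.54 (adjusted p = 0.0124) and -0.75 (adjusted p = 0.214) from day 0. Nkd2, by contrast, was 12.1 ± 0.741 and 13.7 ± 2.00 CPM at day 4 (difference -3.23, SE 0.36, adjusted p = 3.52e-08). Vegfa, lower with VC at day 0, was 109.6 ± 11.9 and 111 ± 23.9 CPM at day 4 (difference 1.80, adjusted p = 2.25e-08). Of all 24 HIF targets, 16 were called lower and 4 higher at day 2 and 10 lower and 4 higher at day 4, and the difference at day 4 was called positive in 4 and negative in 3.

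**Figure D5:**
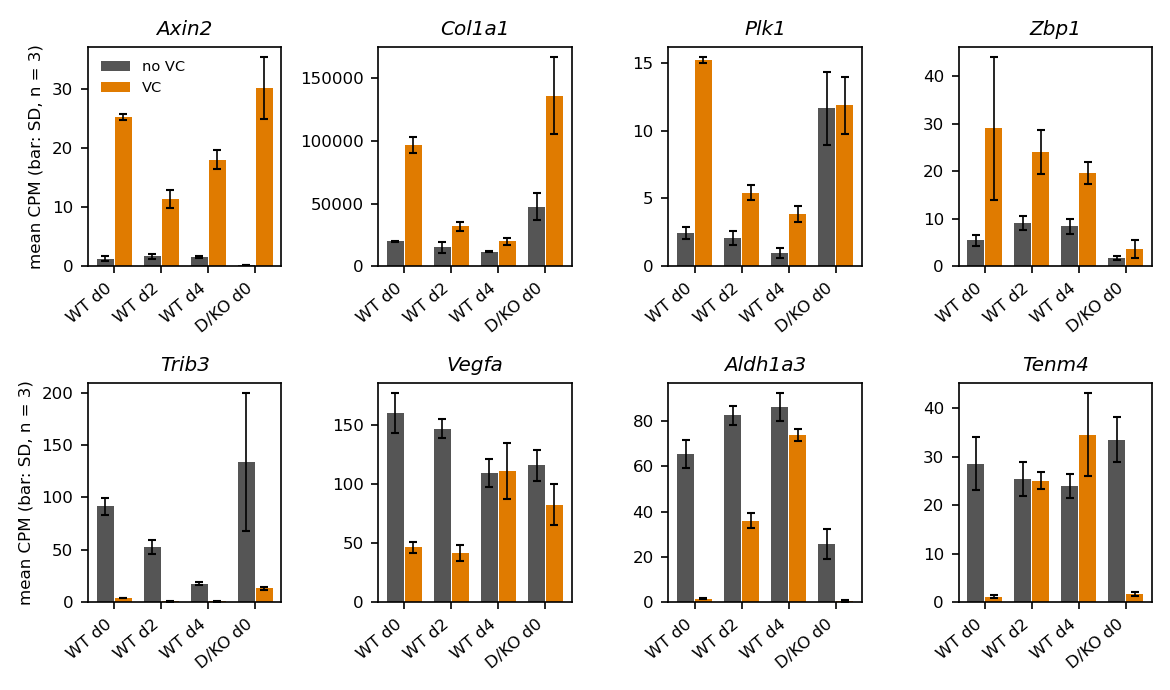
Mean level in CPM (± SD, n = 3 libraries) of Axin2, Col1a1, Plk1, Zbp1, Trib3, Vegfa, Aldh1a3 and Tenm4 without VC and with VC in WT FBs at days 0, 2 and 4 and in D/KO FBs at day 0. Aldh1a3 and Tenm4 are near 0 with VC in WT and D/KO FBs at day 0 and above 20 CPM with VC in WT FBs at days 2 and 4.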

How the data were processed

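RNA from mouse tail tip fibroblasts was sequenced, and the authors deposited read counts per gene, with Ensembl identifiers. The submitters' processing notes name FastQC, Trim Galore, HISAT2 and Subread's featureCounts on GRCm39, and versions and strand setting are not given in the sources used here. Of 56980 identifiers, 56236 (98.7%) matched GENCODE M39, which gave symbols and overlaps.

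Groups came from the labels. The deposited counts of 36 libraries in 12 groups of 3 were fitted together in edgeR 4.0.16 (R 4.3.3) with TMM scaling and filterByExpr (minimum count 10, minimum total 15), and tested by edgeR's quasi-likelihood F-test, adjusted by Benjamini-Hochberg over all genes tested. The TMM factors of the 6 libraries were 0.857 to 1.08 and the common biological coefficient of variation was 0.132. The fit was tested on simulated data, where it recovered 78 of 100 genes changed 2-fold. Differences of effects were interaction contrasts. Alternatives used DESeq2 1.42.0, its size factors, other filters, fewer groups, a 2-fold threshold and libraries left out.

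The members and the 47 gene lists were chosen with earlier results of these data known. Genes were named by rule: called members of the Wnt and ascorbate lists, the 4 smallest p of other lists, the 12 largest rises and falls among genes with no overlap between groups and a mean of at least 1 CPM in either group, the 6 smallest p in each direction, the 5 smallest p of each difference, the 4 factors, Ercc1 and Gsk3b. Any other gene, among them all list members given with no call, was chosen after its values were seen. Fold bounds used a floor of 3 counts over a group, and intervals cover counting error only. Promoter windows lie before the start of each gene's Ensembl canonical transcript in GENCODE M39, on GRCm39. Some genes counted in their lists are not reported here by name.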

Additional observations from a re-analysis of the deposited data

Results flagged for a closer look

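The effect of VC at day 0 differed between WT and D/KO FBs in 2419 genes, between day 2 of doxycycline and day 0 in WT FBs in 874 genes and between day 4 and day 0 in 2427 genes, each by edgeR's test of the difference with Benjamini-Hochberg adjustment. The 2 cell groups differ in genotype, sex, age and line, which cannot be told apart.

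Among the most changed genes of WT cells, a positive difference of log2 fold changes (WT minus D/KO) was found for Rspo4 (2.83), Rmi2 (4.59), Ccl5 (3.71), Rsad2 (6.19), Gask1b (0.48), Cthrc1 (0.87), Kcnj15 (1.27) and Ccdc3 (0.70). Negative differences were found for Axin2 (-2.78), Sh2d6 (-5.76), Trib3 (-1.29), Sbspon (-1.78), Cpz (-2.65) and Cyb5r1 (-0.51). The fitted sizes for Axin2, Rspo4, Rmi2, Ccl5, Rsad2 and Sh2d6 rest on near-zero counts in at least 1 group and depend on the prior count. Cthrc1, Gask1b and Cpz rose and Ccdc3 fell in both cell groups, so there the difference is of size. The 5 genes of smallest p for the difference were Kcnj2 (-2.96), Col15a1 (2.31), Entpd1 (3.19), D17H6S56E-5 (2.65) and Adam33 (-3.35).

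For day 2 minus day 0 in WT cells, the 5 genes of smallest p were Aldh1a3 (4.21), Tenm4 (4.59), Lbp (3.16), Itgb4 (3.13) and Mmp28 (3.12), a matrix metalloprotease that fell with VC at day 0. For day 4 minus day 0 they were Aldh1a3 (5.19), Tenm4 (5.13), Serpine2 (-2.31), Serpina3n (-2.11) and Cd34 (2.58). Serpine2, an inhibitor of serine proteases, was 196, 215 and 213 CPM without VC and 313, 283 and 303 CPM with VC at day 0, and 312 ± 12.6 and 90.3 ± 7.65 CPM (mean ± SD, n = 3) at day 4. Serpina3n, of a multigene family among which reads could be split, was 413, 391 and 416 CPM and 1014, 915 and 879 CPM at day 0, and 400.1 ± 14.3 and 214 ± 1.78 CPM at day 4.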

How the results depend on the processing

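With a change of at least 2-fold also required, 717 genes were higher and 802 lower with VC in WT cells at day 0, and the differences numbered 1065 (WT minus D/KO), 376 (day 2 minus day 0) and 992 (day 4 minus day 0). With only the groups compared in the fit, the day 4 difference was called in 3754 genes. Leaving out each library in turn gave 1815 to 2303 genes higher and 1730 to 2145 lower, 1547 to 3008 for WT minus D/KO, 612 to 953 for day 2 minus day 0 and 1823 to 2314 for day 4 minus day 0. Other settings stayed within 1.5 times of the counts reported; DESeq2 called 2551 higher and 2392 lower, and no filter on low counts 2219 and 2146 of 30298 genes. Among 250 named genes, of which 240 were tested with only the groups compared and 187 with at least 10 counts in every sample, none tested reversed its call, and 0 to 19 lost it in any 1 setting. With 3 libraries a group, genes of few counts and changes under 2-fold are the least certain, and the cause of calls lost was not tested. No paired analysis was possible because the labels give the libraries of the groups no shared replicate numbers.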

Other observations

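Xist, the RNA that coats the inactive X chromosome and a gene chosen after its values were seen, had 7873, 5456 and 7898 counts in the WT day 0 libraries without VC and 1072, 2262 and 934 with VC. Its log2 fold change was -2.07 (edgeR adjusted p = 1.95e-07). In WT cells on doxycycline it was 268 CPM without and 82.4 CPM with VC at day 2, and 488 and 643 CPM at day 4, where the VC effect differed from that at day 0 by 2.47 (edgeR adjusted p = 7.76e-06). Xist overlaps genes on the other strand, and its reads were not separated from theirs. Ddx3y, on the Y chromosome, had 0 counts in all 6 libraries. Of 480 tested genes on the X chromosome, 90 rose and 90 fell (18.75% each) with a median log2 fold change of -0.03, against 15.02% and 14.3% of 15270 autosomal genes. Of 21 mitochondrial genes 1 rose and none fell, with a median of 0.30.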
